A study of Mus musculus with 6 samples.

Results

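Adgre1, Vcam1, Siglec1 and Cd163 are 4 surface genes by which macrophages of the erythroblastic island (EBI) are commonly recognised, and they were described here in every tissue section of the series. They were taken by name, as 4 of the 5294 genes measured in any section and of the 233 measured in every one. All 4 were read in all 6 sections (Adgre1, ENSMUSG00000004730; Vcam1, ENSMUSG00000027962; Siglec1, ENSMUSG00000027322; Cd163, ENSMUSG00000008845).

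In an EBI, maturing erythroblasts surround a central macrophage that holds them, supplies iron and engulfs the nuclei they expel. Vcam1 is an adhesion molecule that binds the integrin α4β1 on erythroblasts, and Siglec1 (CD169) is a lectin that binds sialic acids on neighbouring cells. Adgre1 encodes F4/80, the adhesion receptor most used as a mouse macrophage marker. Cd163 is the scavenger receptor that takes up haemoglobin bound to haptoglobin. None of the 4 is exclusive to island macrophages: Vcam1 is also made by activated endothelium and stroma, and Siglec1 is known for the metallophilic macrophages that line the marginal zone of the spleen. C1qa, C1qb and C1qc encode the chains of complement C1q, the marker by which the study recognises its C1q+ EBI macrophages.

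Transcripts were counted in place by Xenium, an imaging assay in which fluorescent probes are read over successive cycles and each decoded transcript is assigned to a segmented cell. The 6 sections of 5 µm came from wild-type C57BL/6 mice: E14.5 fetal liver, bone marrow of the femur at postnatal day 8 (P8), an adult spleen with no treatment named (untreated), a spleen after phenylhydrazine (PHZ, which lyses red cells; 40 mg/kg intraperitoneally 2 times a day for 2 days), E13.5 fetal liver, and bone marrow at 89 weeks of age (aged bone marrow). The first 4 were read on a smaller gene panel, with the fetal liver and P8 marrow on one slide and both spleens on another. E13.5 liver and aged marrow were read on a larger panel with other chemistry, fewer probe sets per gene (2 for each of the 4 genes in place of 8) and another outline of cells, and the aged marrow had been cryosectioned and freed from bone before embedding. Their levels are therefore set beside the others without comparison. Each condition had 1 section, so no difference between sections could be tested, and all intervals given are 95% intervals that cover counting error only.

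After cells with fewer than 5 genes were left out, 117323 cells remained at E14.5, 50523 at P8, 108327 in the untreated spleen, 94492 in the spleen after PHZ, 5254 at E13.5 and 140707 in aged marrow, with 1384754 to 20952120 gene counts per section and medians of 62 to 191 counts per cell. The tissue labels were checked against marker lists. Cells led by hepatocyte genes were present at E14.5 (15596 cells) and, on 3 markers, at E13.5 (22 cells), erythroid genes made up 49.7% of counts at E14.5, 29.1% at P8 and 31.5% in the PHZ-treated spleen against 4.8% in the untreated spleen, and P8 marrow also held cells led by cartilage or bone genes (4205) and by skeletal muscle genes (3081). Follicular stromal genes of the spleen took 177 of every 10000 counts in the untreated section and 36.2 in the PHZ-treated one, and T or NK cell genes 358 and 78.03. The part that these differences in cell make-up had in the results on the spleen was not tested.

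Vcam1, the integrin ligand, was detected in 29.9% of cells at E14.5, 24.5% at P8, 47.7% of the untreated and 31.9% of the PHZ-treated spleen, and in 5.25% at E13.5 and 3.57% in aged marrow. Its level per 1000000 gene counts (CPM) was 2547 (95% interval 2525 to 2568) at E14.5, 3175 (3132 to 3219) at P8, 13183 (13113 to 13253) in the untreated spleen, 5794 (5750 to 5839) in the PHZ-treated spleen, 235 (211 to 262) at E13.5 and 446 (435 to 458) in aged marrow. On the smaller panel the order was untreated spleen, PHZ-treated spleen, P8 marrow and E14.5 liver, with no overlap of intervals, although P8 marrow was below E14.5 liver in the share of cells with Vcam1 and in counts per cell (log2 -0.17).

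The level of the lectin Siglec1 was 143 CPM (138 to 148) at E14.5, 213 (202 to 224) at P8, 1283 (1261 to 1305) in the untreated spleen, 394 (383 to 406) in the PHZ-treated spleen, 15.9 (9.96 to 24.1) at E13.5 and 50.9 (47.1 to 54.9) in aged marrow. It was detected in 2.21%, 2.45%, 7.17%, 3.50%, 0.4% and 0.441% of cells in the same order of sections. The E13.5 value rests on 22 counts in 21 cells. The order of the 4 smaller-panel sections was the same as for Vcam1.

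Adgre1 reached 946 CPM (933 to 959) at E14.5, 1063 (1038 to 1088) at P8, 4094 (4055 to 4133) in the untreated spleen, 1255 (1234 to 1276) in the PHZ-treated spleen, 187 (165 to 211) at E13.5 and 130 (124 to 137) in aged marrow. The shares of cells were 11.7%, 10.7%, 24.8%, 11.7%, 3.39% and 1.14%. The untreated spleen stood apart, and the other 3 sections of the panel lay close together, with P8 marrow below E14.5 liver in counts per cell (log2 -0.32).

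Cd163, the haemoglobin scavenger receptor, varied most between sections. Its level was 19.6 CPM (17.7 to 21.6) at E14.5, 303 (290 to 317) at P8, 1211 (1189 to 1232) in the untreated spleen and 240 (231 to 249) in the PHZ-treated spleen, with detection in 0.333%, 2.76%, 7.48% and 2.23% of cells. At E13.5 a single transcript was assigned to a cell (0.722 CPM, 0.0183 to 4.02), while aged marrow held 3287 (252 CPM, 243 to 261; 1.79% of cells). On the smaller panel Cd163 was thus lowest in the fetal liver, and its order was untreated spleen, P8 marrow, PHZ-treated spleen and E14.5 liver. The highest negative-control probe stood at 5.01 to 7.44 CPM in the smaller-panel sections and at 0.722 and 1.38 CPM in the larger-panel ones, so the E13.5 value of Cd163 was at the level of a control probe and is not read further.

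**Figure D1:**
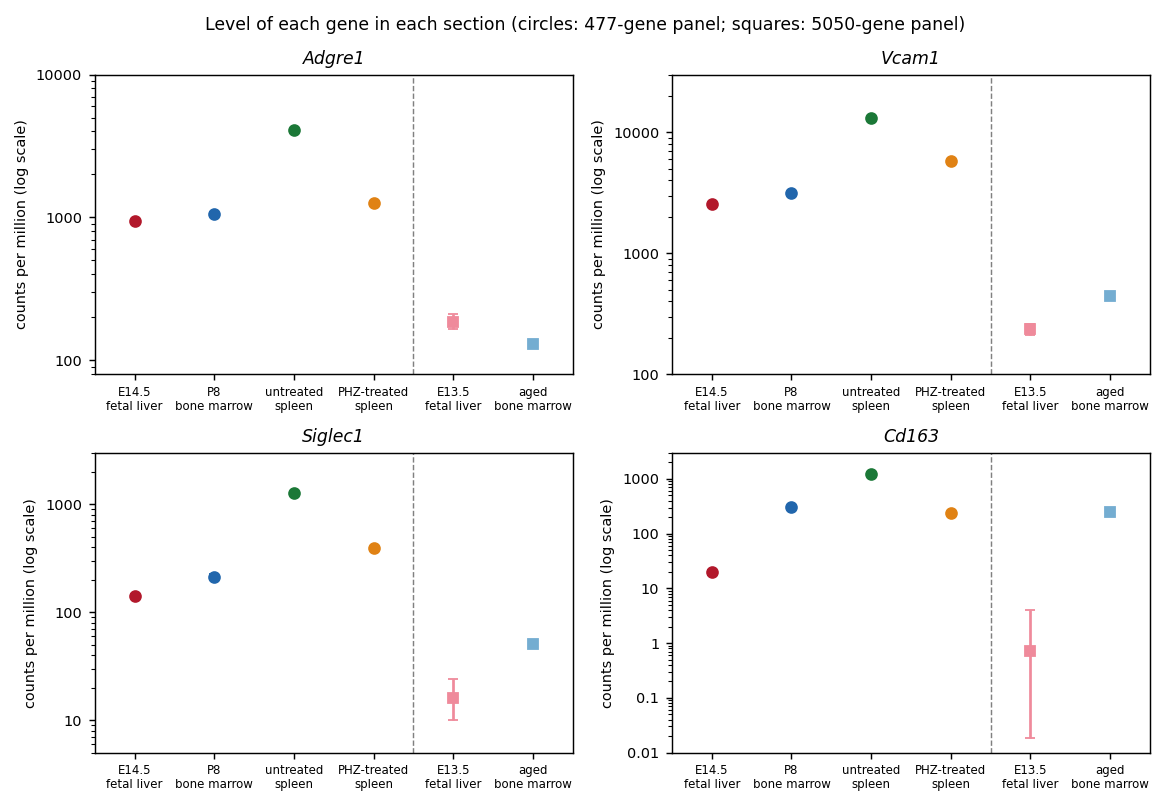
Level of each gene in the 6 sections, in counts per 1000000 gene counts on a log axis; circles are sections of the smaller panel, squares those of the larger, and bars are exact Poisson 95% intervals for counting error. The untreated spleen is highest of the 4 circles for every gene, and the lowest circle is Cd163 at E14.5, at 19.6.

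The 4 genes were next read against C1q. Cells with 3 or more counts of C1qa, C1qb and C1qc together made up 12.8% of cells at E14.5, 11.5% at P8, 36.0% of the untreated and 35.2% of the PHZ-treated spleen, 5.73% at E13.5 and 2.90% in aged marrow. In these cells and in the rest the median depth was 171 and 167 counts at E14.5 and 147 and 108 at P8. It was 110 and 72.5 in the untreated spleen and 135 and 89 after PHZ. At E13.5 it was 252 and 186, and in aged marrow 134 and 60. The cells with 3 or more C1q counts were thus deeper than the rest. Every gene was detected in a larger share of them than of the other cells in each of the 23 combinations of gene and section that gave a fold. A larger share was also common over all genes found in at least 1% of cells: it was seen for 48.9% of them at E14.5, 68.9% at P8, 70.2% in the untreated spleen, 76.9% after PHZ, 72.9% at E13.5 and 99% in aged marrow, with median folds of 0.997, 1.17, 1.29, 1.27, 1.23 and 1.63. The size of each fold is therefore to be read beside these medians.

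Adgre1 was detected in 47.0% (46.2 to 47.8) of cells with 3 or more C1q counts against 6.58% (6.43 to 6.73) of the others at E14.5. The same shares were 34.9% and 7.54% at P8, 40.3% and 16.1% in the untreated spleen, 21.5% and 6.38% after PHZ, 33.6% and 1.55% at E13.5 and 9.27% and 0.895% in aged marrow. Its fold between the 2 kinds of cell was 7.14 at E14.5 and 2.498 in the untreated spleen, its highest and lowest on the smaller panel. Detection was higher at each step of C1q count in all 6 sections, at E14.5 from 4.61% of cells without C1q to 75.5% of cells with 10 or more.

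Vcam1 had the smallest fold of the 4 genes at E14.5, where 43.1% of cells with 3 or more C1q counts and 27.9% of the others held it, a fold of 1.54 (1.499 to 1.586). The fold was 2.72 at P8 (55.6% and 20.5%), 2.78 in the untreated spleen (80.8% and 29.1%), 3.26 after PHZ (58.0% and 17.8%), 6.14 at E13.5 (24.9% and 4.06%) and 6.86 in aged marrow (20.9% and 3.05%). In aged marrow, where the depth of the 2 kinds of cell differed most, cells of like total count gave 4.36 for Vcam1, 7.12 for Adgre1, 13.1 for Siglec1 and 10.5 for Cd163. In the untreated spleen 95.8% of cells with 10 or more C1q counts held Vcam1, against 21.8% of cells without C1q.

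Siglec1 had large folds in all sections but one. It was detected in 10.8% and 0.962% of cells at E14.5 (fold 11.2, 10.05 to 12.5), 10.5% and 1.41% at P8 (7.48), 8.00% and 1.06% after PHZ (7.54), 3.65% and 0.202% at E13.5 (18.1, 4.95 to 66.5, on 11 cells of 301) and 5.59% and 0.288% in aged marrow (19.4). In the untreated spleen the shares were 8.45% and 6.46%, a fold of 1.31 (1.23 to 1.39), next to the median of 1.29 over all genes. Cells of like depth gave 0.845 there, beside a median of 0.867, so the direction turned once depth was held fixed. Over the C1q steps of that section the share was 6.92%, 5.71%, 5.77%, 6.97% and 13.4% of cells with 0, 1 to 2, 3 to 5, 6 to 9 and 10 or more C1q counts. By this fold Siglec1 ranked 1st of 260 genes after PHZ and 134th of 272 in the untreated spleen.

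Cd163 had a large fold in the untreated spleen, where Siglec1 did not. It was detected in 16.8% and 2.24% of cells in the untreated spleen, a fold of 7.50 (6.98 to 8.06) that ranked 1st of the 272 genes found in at least 1% of cells. In aged marrow the shares were 19.3% and 1.26%, a fold of 15.3 (13.7 to 17.0) that ranked 1st of 1733 such genes, a ranking that leaves out Siglec1 because it was in fewer than 1% of cells there. The fold was 5.56 at P8 (10.1% and 1.81%), 4.20 after PHZ (4.41% and 1.05%) and 2.78 at E14.5 (0.754% and 0.272%). Even among cells with 10 or more C1q counts, Cd163 was found in 1.703% at E14.5 and 6.19% after PHZ, compared with 23.1% at P8 and 27.8% in the untreated spleen. On the larger panel the value in aged marrow was 49.8%.

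**Figure D2:**
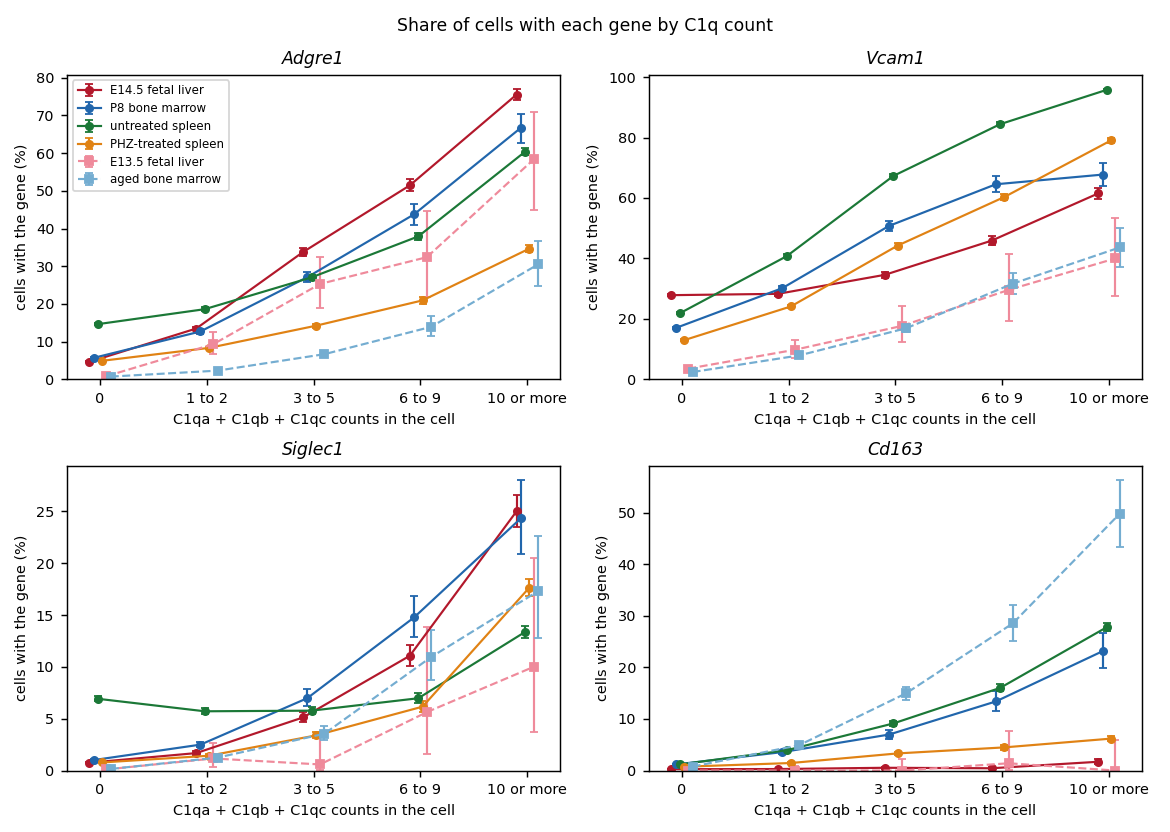
Share of cells with each gene (%) by the summed count of C1qa, C1qb and C1qc in the cell, for the 6 sections; bars are exact binomial 95% intervals. The shares of Adgre1 and Vcam1 rise at every step in all 6 sections. For Vcam1 at E14.5 the first step is only from 27.8% to 28.3%, and per 10000 counts its level falls there from 23.8 to 21.8. Siglec1 in the untreated spleen stays between 5.71% and 6.97% up to the 4th of the 5 steps.

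The reading was also turned round, from the 4 genes to C1q. At E14.5, 6.23% of cells with none of them had 3 or more C1q counts, against 16.7% with 1, 59.9% with 2, 93.8% with 3 and 100% of the 10 cells with all 4. The share was 96.9% of 32 such cells at P8, 98.1% of 427 in the untreated spleen and 97.8% of 45 after PHZ. In aged marrow it was 71.4% of 7, and 75.7% of the cells with 3 of the genes. Among cells with none it was 4.43%, 10.9%, 18.2% and 1.82% in the same order. Cells with all 4 were also deeper than cells with none. Their medians were 160.5 and 102 counts at P8, 186 and 68 in the untreated spleen and 217 and 91 after PHZ. The part of depth in these shares was not tested. In turn, the cells with 3 or more C1q counts were not uniform: 30.2% at E14.5, 25.9% at P8, 12.2% in the untreated spleen, 31.2% after PHZ, 51.2% at E13.5 and 58.8% in aged marrow held none of the 4. The commonest single combination among the rest was Adgre1 alone at E14.5 (21.6%) and E13.5 (21.3%), and Vcam1 alone at P8 (28.6%), in the untreated (36.0%) and PHZ-treated spleen (38.8%) and in aged marrow (12.6%). A count of 0 at this depth does not show that a cell lacks a gene.

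Cells were also grouped by other marker genes, whatever their C1q count. Each was classed by the marker list with the largest excess over its section's mean, from 13 lists that contain none of the 4 genes. At E14.5, where the erythroid list took so much of all counts that it could lead no cell, Vcam1 was detected in 56.7% (55.9 to 57.5) of the 15596 hepatocyte-led cells and 42.6% (41.7 to 43.6) of the 10537 C1q-led cells, at medians of 164 and 157 counts per cell. The hepatocyte-led cells carried 30.4% of all Vcam1 counts of the section and the C1q-led cells 14.3%. Stromal-led cells (38.8%) and endothelial-led cells (29.6%) lay between these and the cells led by no list (19.2%). Adgre1 in the same hepatocyte-led cells was at 3.21% and Siglec1 at 0.840%, against 50.1% and 12.1% in C1q-led cells.

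At P8 the 4205 cells led by cartilage or bone genes served as a background, with Adgre1 in 0.476%, Vcam1 in 2.47%, Siglec1 in 0.285% and Cd163 in 0.190% of them at a median of 79 counts. Cd163 stood well above this in the 3081 skeletal-muscle-led cells, at 7.92% (6.99 to 8.93) and a median of 152 counts, close to the 9.63% (8.74 to 10.6) of C1q-led cells at 131 counts. Per 10000 counts the levels were further apart, at 5.86 in muscle-led and 12.4 in C1q-led cells. The muscle-led cells carried 16.5% of the Cd163 counts of the section and stromal-led cells, at 3.89%, another 15.3%. For the other 3 genes the muscle-led cells were below the share in cells led by no list. Vcam1 was highest in C1q-led cells (58.2%), followed by resident-macrophage-led (44.8%) and endothelial-led cells (38.8%). Adgre1 was detected in 19.7% of monocyte- or dendritic-led cells at P8 and 32.2% at E14.5.

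In the untreated spleen C1q-led cells had Adgre1 in 50.7%, Vcam1 in 89.0% and Cd163 in 23.0%, each the highest share of any class. Siglec1 was highest elsewhere: 19.8% of the cells led by resident macrophage genes other than C1q held it, against 10.4% of C1q-led cells, 9.63% of cells led by follicular stromal genes and 7.89% of cells led by no list, and these last carried 27.4% of its counts. After PHZ Siglec1 was in 12.6% of follicular-led cells (median of 130 counts) and 10.4% of C1q-led cells (101.5), but in 2.07% of the 1689 follicular-led cells with 0 to 2 C1q counts, and per 10000 counts the levels were 13.3 and 13.6. In the untreated spleen 10.9% of the 6391 follicular-led and 23.3% of the 908 resident-macrophage-led cells with 0 to 2 C1q counts held it. In aged marrow Vcam1 was in 27.8% of resident-macrophage-led, 22.9% of endothelial-led and 18.8% of C1q-led cells, whereas Cd163 was at 19.6% in C1q-led and 2.04% in endothelial-led cells.

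**Figure D3:**
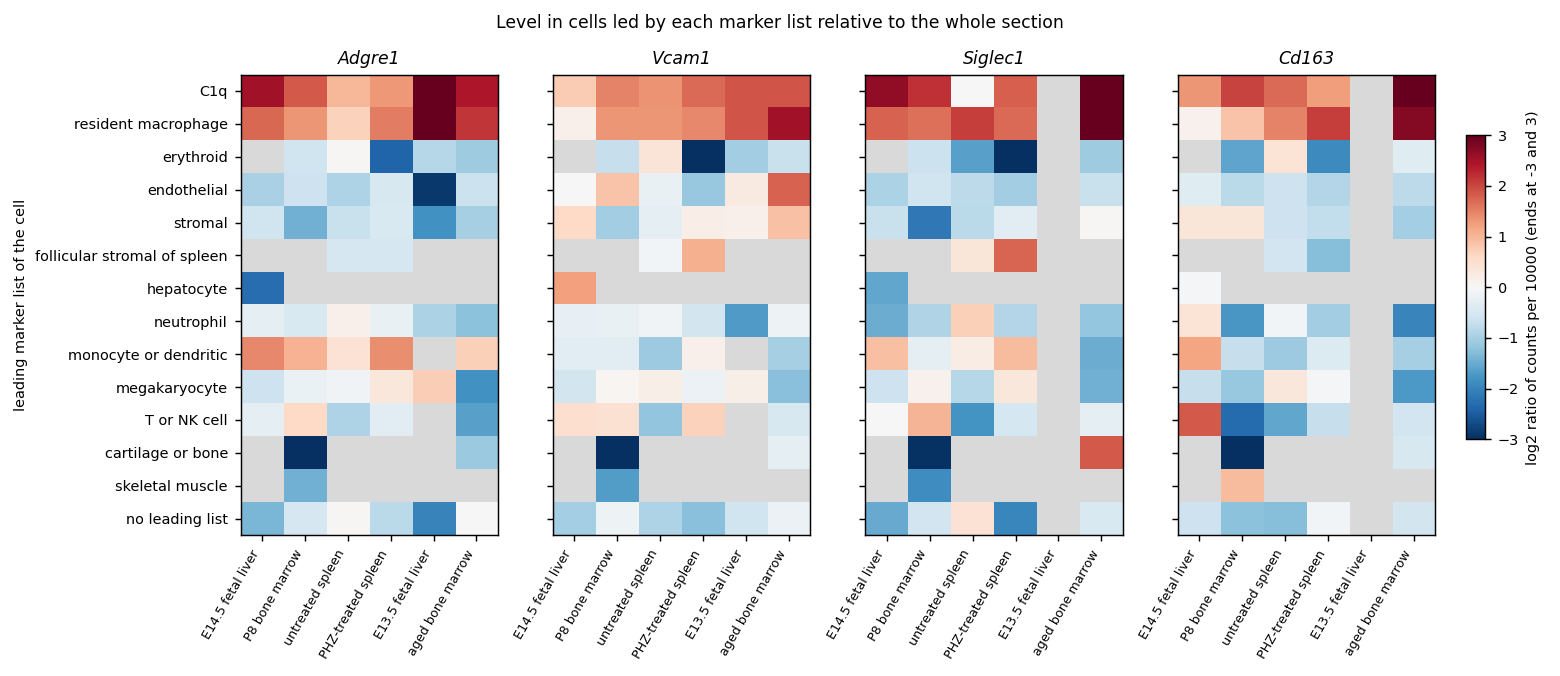
Level of each gene in cells led by each marker list, relative to the mean of the whole section, for the 6 sections; grey marks classes of fewer than 50 cells, lists that were not used and genes with fewer than 100 counts in a section. C1q-led cells are raised for the genes shown except Siglec1 in the untreated spleen, with Vcam1 also raised in hepatocyte-led cells at E14.5 and Cd163 in skeletal-muscle-led cells at P8.

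The 4 genes were then compared with one another. For each of the 6 pairs, the number of cells with both was set against the number expected from independence among cells of like total count. Of the 33 pairs and sections that gave a value, 31 exceeded the expected number. Among these, the interval included 1 for Vcam1 with Cd163 at E14.5 (1.18, 0.996 to 1.38) and Vcam1 with Siglec1 at E13.5 (3.01, 0.978 to 7.03, on 5 cells). On the smaller panel the median fold over all genes in at least 1% of cells was 0.939 to 1.02 with Adgre1 and 0.982 to 1.17 with Vcam1. It was 0.872 to 1.23 with Siglec1 and 0.885 to 1.16 with Cd163. At E13.5 it was 0.911 with Adgre1, 1.01 with Vcam1 and 1.17 with Siglec1. In aged marrow it was 0.945, 0.971 and 0.924 with the same genes and 0.948 with Cd163. Where a median is above 1, most genes exceeded the expected number as well. The count of 31 is therefore not read as particular to these pairs. The folds are to be read beside these medians. At E14.5, Adgre1 and Siglec1 shared 1183 cells where 313 were expected, a fold of 3.79 (3.57 to 4.01), with Siglec1 found in 8.59% of Adgre1 cells and Adgre1 in 45.5% of Siglec1 cells. In aged marrow Siglec1 and Cd163 shared 129 cells where 16.4 were expected, a fold of 7.85 (6.55 to 9.33), and the same pair reached 2.81 at P8 and 3.41 at E14.5. Adgre1 and Vcam1 had folds of 1.23 at E14.5, 1.56 at P8, 1.14 in the untreated spleen and 1.28 after PHZ. The medians over all genes with Vcam1 were 1.15, 1.03, 0.982 and 1.17 in the same order. Among cells with 3 or more C1q counts alone, these folds were smaller. Adgre1 with Siglec1 at E14.5 was then at 1.38. Siglec1 with Cd163 was at 1.72 in aged marrow, 1.54 at P8 and 2.35 at E14.5. Adgre1 with Vcam1 was at 1.10 at E14.5, 1.10 at P8, 1.05 in the untreated spleen and 1.01 after PHZ. Of the 33 values, 26 moved beyond counting error under this restriction and 4 changed sign.

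Over all cells, both values below the expected number fell in the untreated spleen and both involved Siglec1. Siglec1 and Cd163 shared 691 cells where 787 were expected, a fold of 0.878 (0.814 to 0.946), and Adgre1 and Siglec1 shared 2302 where 2382 were expected (0.966, 0.927 to 1.01). Over all 274 genes the median fold in that section was 0.872 with Siglec1, 0.902 with Cd163 and 0.939 with Adgre1. The first pair was thus near the median for Siglec1 and the second above it. Without allowance for depth both pairs exceeded the expected number, and within squares of 200 µm both were close to it. After PHZ the folds of these pairs were 1.35 and 1.74, beside a median over all genes of 1.23 with Siglec1. The first turned to a log2 value of -0.0090 with at least 2 counts of each gene and -0.077 among cells with 3 or more C1q counts.

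For each gene, the genes of the smaller panel whose cells overlapped with it most, by the mean fold over its 4 sections, were mostly other macrophage genes. For Adgre1, among 198 genes, they were the lectin Clec4a3 (2.20), Siglec1 (2.01), Cd5l (1.96), C1qa (1.91) and Spic, a transcription factor of iron-recycling macrophages (1.88). For Cd163, among 199, they were Clec4a3 (2.03), Cd5l (1.91), Siglec1 (1.84), C1qa (1.82) and C1qc (1.80). Siglec1 was accompanied by Timd4, a receptor for phosphatidylserine on dying cells (4.13), then Il18 (2.54), Nr1h3 (2.34) and the scavenger receptor Marco (2.33). Vcam1 had the lowest values, with Timd4 (1.58), Siglec1 (1.53), Nr1h3 (1.48), Il18 (1.48) and Spic (1.47).

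A list of other genes used for island macrophages (C1q chains, Timd4, Dnase2a, Slc40a1, Trf, Spic, Nr1h3, Maf, Igf1, Il18, Epor, Cd5l, Mrc1 and, on the larger panel, Mertk and Hmox1) had 15 members measured on the smaller panel and 13 on the larger. Their median fold with Siglec1 was 3.31 at E14.5 beside a median of 0.978 over all 270 genes, and 4.59 in aged marrow beside 0.924 over 1736. In the untreated spleen it was 1.09 beside 0.872. With Vcam1 the medians were 1.28 at E14.5, 1.59 at P8, 1.25 in the untreated spleen and 1.45 after PHZ, beside 1.15, 1.03, 0.982 and 1.17. With Adgre1 they were 2.56, 1.88, 1.22 and 1.36 in the same order, beside 1.00, 1.02, 0.939 and 1.01. Cd163 had medians of 1.44 at E14.5, 1.55 at P8, 1.51 in the untreated spleen, 1.39 after PHZ and 4.01 in aged marrow, beside 1.16, 1.15, 0.902, 0.885 and 0.948 over all genes. Timd4 separated Siglec1 and Cd163 within the spleen: its fold with Siglec1 was 2.85 without and 5.33 with PHZ, and its fold with Cd163 was 0.667 and 0.541.

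Known partners of the surface proteins were read in the same cells. Itgb1, the β1 chain of the integrin that binds Vcam1, had folds with Vcam1 of 0.970 to 1.04 on the smaller panel. It was in 63.8% to 74.5% of all cells there, which limits how far a fold can rise above 1. Slc40a1, in 51.1% to 71.0% of these cells, had folds with Vcam1 of 1.02 at E14.5 and 1.24 at P8. In the untreated spleen its fold was 1.26 and after PHZ 1.13. On the larger panel the folds of Itgb1 with Vcam1 were 1.01 at E13.5 and 1.12 in aged marrow. The medians over all genes were 1.01 and 0.971. Itga4, the α4 chain, had folds with Vcam1 of 0.705 at E13.5 and 0.821 in aged marrow. Spn, a ligand of Siglec1, had a fold of 0.723 with it (27 cells) in aged marrow, and Hp, which encodes haptoglobin, had folds of 1.22, 0.644, 1.07 and 0.618 with Cd163 at E14.5, at P8, and in the untreated and PHZ-treated spleen. These values describe detection in one segmented outline and say nothing of contact between neighbouring cells.

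Since outlines of cells can take in transcripts of a neighbour, the transcripts themselves were also measured against the nearest C1q transcript in the 4 sections of the smaller panel. At E14.5, 83.6% of Adgre1 and 81.9% of Siglec1 transcripts lay within 5 µm of a C1q transcript, against 37.4% of all other transcripts. Vcam1 was at 40.8%, little above that background, and Cd163 at 52.4% of only 416 transcripts. At P8 the shares were 74.2% for Adgre1, 63.1% for Vcam1, 78.04% for Siglec1 and 77.2% for Cd163 against 40.5% overall.

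In the untreated spleen C1q transcripts were dense enough that 77.8% of all others lay within 5 µm of one. Adgre1 (85.7%), Vcam1 (93.7%) and Cd163 (97.8%, 4th of 290 genes) were above this. Siglec1 was below, at 65.9%, and ranked 278th. After PHZ, Siglec1 was at 93.8% and ranked 2nd of 273 genes, beside 87.2% for Adgre1, 91.8% for Vcam1, 92.1% for Cd163 and 71.7% overall. The measure that ignores outlines thus gave Siglec1 the same order between both spleens as the cell counts.

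Erythroid transcripts around the cells differed by gene. In the PHZ-treated spleen, erythroid genes made up 18.5% of counts within 20 µm of cells with Siglec1 and 30.9% around cells without it, whereas the values for Cd163 were 36.6% and 30.3%. For Vcam1 they were 24.4% and 33.6%, and for Adgre1 29.7% and 30.6%. Without PHZ, cells with Cd163 (6.70% against 4.30%), Vcam1 (5.49% against 3.52%) and Adgre1 (5.496% against 4.13%) all had more erythroid counts around them than cells without, and cells with Siglec1 slightly fewer (4.15% against 4.51%). Over the whole P8 section cells with Cd163 had fewer (28.9% against 38.1%), and cells with Siglec1 (41.4% against 37.8%), Vcam1 (40.3% against 36.9%) and Adgre1 (39.9% against 37.6%) more. That section includes tissue outside the marrow. Of the P8 cells with Cd163, 17.5% were skeletal-muscle-led and 16.2% stromal-led, against 6.10% and 11.5% of all cells. Cartilage- or bone-led cells were 8.32% of all cells but 0.371% to 0.969% of cells with each gene. The part of such tissue in these contrasts was not tested. At E14.5 the shares lay between 48.4% and 50.9% around cells with each of the 4 genes and between 50.9% and 51.7% around cells without them.

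The overlap of Siglec1 with C1q in the untreated spleen, low beside the other sections, was followed further. Of 2337 cells with 2 or more Siglec1 counts, 808 (34.6%) had 3 or more C1q counts, compared with 643 of 672 (95.7%) after PHZ. Of all cells, 36.0% of the untreated and 35.2% of the PHZ-treated section did, so the first value was near the share of its section. For Cd163 the corresponding numbers were 2261 of 2373 (95.3%) and 342 of 377 (90.7%). Around the 4478 Siglec1 cells of the untreated spleen with 0 to 2 C1q counts, C1q took 113 of every 10000 counts within 20 µm, and around such cells with Adgre1, Vcam1 and Cd163 it took 257, 299 and 401. Around all cells of the section it took 341, so the values for Adgre1 and Vcam1 were also below the section's. Follicular stromal genes took 231 around these Siglec1 cells, 155, 189.7 and 172 around those with Adgre1, Vcam1 and Cd163, and 173 around all cells. The genes that overlapped most with Siglec1 in cells with 0 to 2 C1q counts, named after their values were seen, were Htra3 (fold 3.88), Cxcr2 (3.83), Timd4 (3.39), 2610528A11Rik (3.02) and Marco (2.79).

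Cells with Siglec1 and cells with Cd163 occupied different places in the untreated spleen. Among cells with 2 or more Siglec1 counts, 85.3% had another such cell within 20 µm, against 25.6% of other cells, but only 10.9% had a cell with 2 or more Cd163 counts in that range, against 29.8% of other cells. Cd163 cells had another Cd163 cell within 20 µm in 82.2% and a Siglec1 cell in 16.6% (27.5% of other cells), and 61 cells had 2 or more counts of both. On the section, Siglec1 cells with few C1q counts lay in narrow curved bands and Cd163 cells filled the areas between. After PHZ, 56.4% of Siglec1 cells had another within 20 µm (7.97% of other cells) and 4.61% had a Cd163 cell (5.95%), whereas 11.7% of Cd163 cells had a Siglec1 cell in that range, above the 8.61% of other cells.

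**Figure D4:**
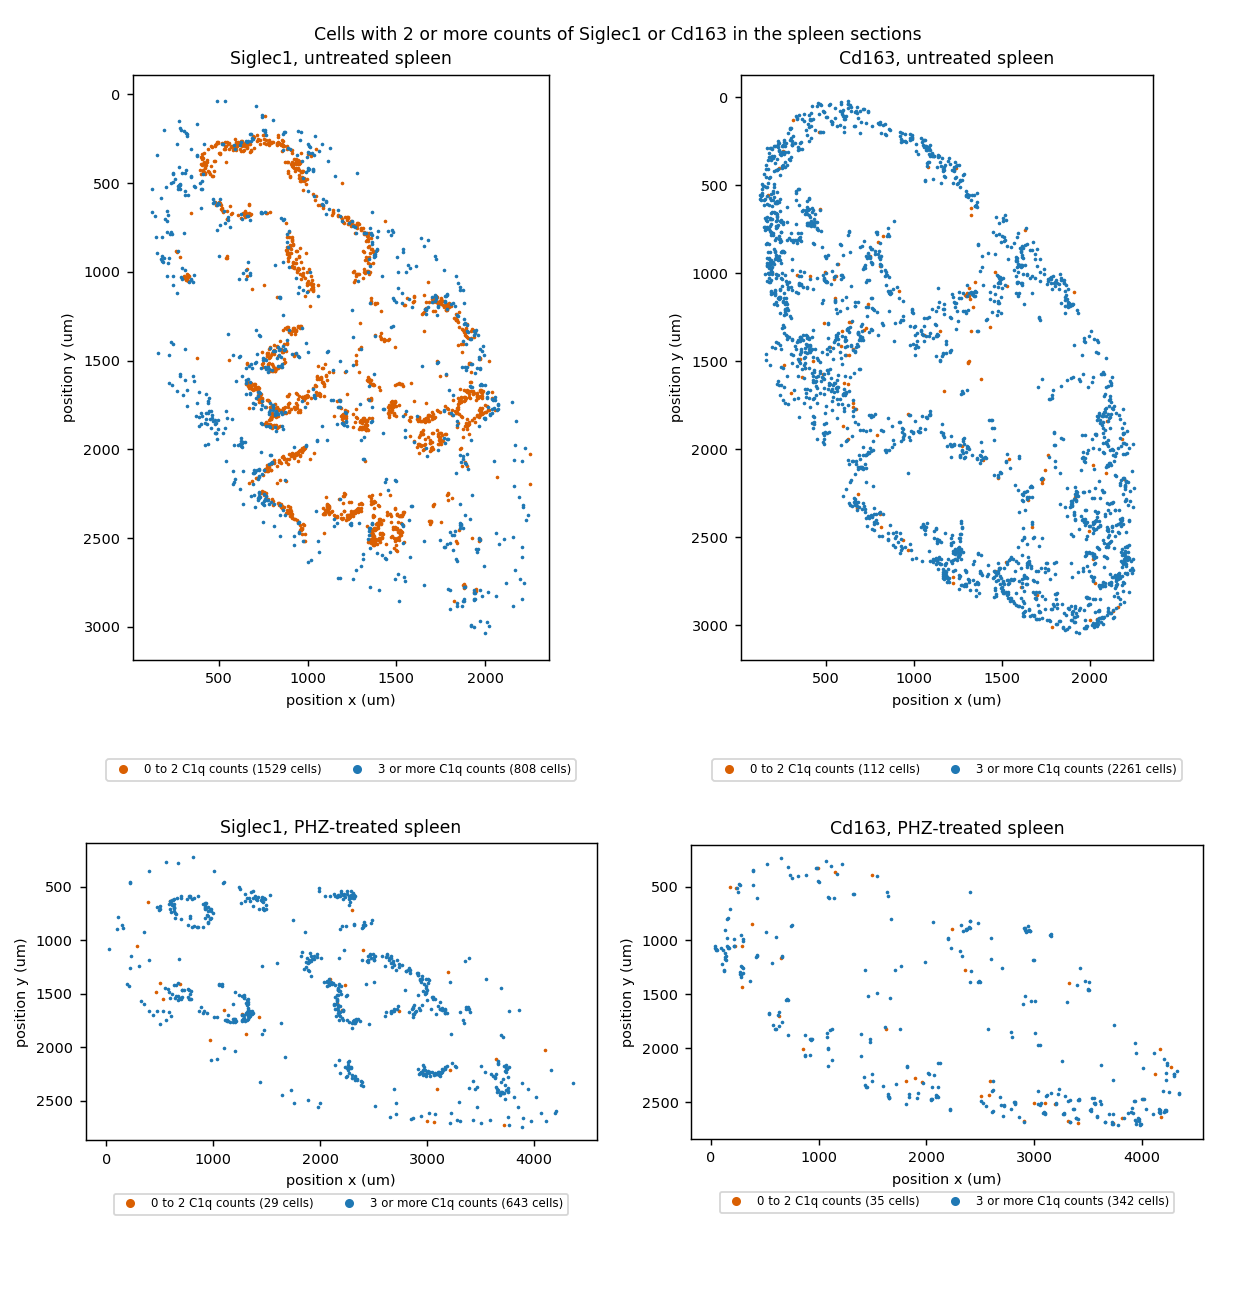
Positions (µm) of cells with 2 or more counts of Siglec1 or of Cd163 in the untreated and PHZ-treated spleen, coloured by whether the cell had 3 or more C1q counts. Siglec1 cells with 0 to 2 C1q counts form bands in the untreated section. There 34.6% of Siglec1 cells are C1q-positive against 95.7% after PHZ, while Cd163 cells are C1q-positive in 95.3% and 90.7%. Of all cells, 36.0% and 35.2% are C1q-positive.

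The comparison of the PHZ-treated with the untreated spleen asked how these genes stood when red cells had been destroyed and the spleen was making new ones. All 4 were lower after PHZ. The ratio of CPM was 0.307 for Adgre1 (4094 and 1255), 0.440 for Vcam1 (13183 and 5794), 0.307 for Siglec1 (1283 and 394) and 0.198 for Cd163 (1211 and 240), on the log2 scale -1.71 (-1.73 to -1.68), -1.19 (-1.20 to -1.17), -1.70 (-1.75 to -1.65) and -2.33 (-2.39 to -2.27). All 4 were past a 1.5-fold decrease, as were 41.5% of the 472 genes with 100 or more counts over both sections (196 genes), while 16.5% (78 genes) were past a 1.5-fold increase. The median log2 ratio over these genes was -0.45, relative to which the 4 genes stood at -1.25, -0.73, -1.25 and -1.88. The split of all genes depended on the denominator: counts per cell gave 97 higher and 140 lower with a median of -0.11, totals without erythroid genes 109 and 125 with 0.02, the median-ratio size factor 104 and 128, and counts per area of segmented cells 61 and 303 with -0.89. Each of the 4 genes was below 0 under all of them. Erythroid genes took 4.8% of counts in the untreated section and 31.5% after PHZ, and Hbb-bt, an adult β-globin, alone 0.864% and 4.49%, which leaves less of a fixed total for other genes. In such totals, fewer cells of a type and less RNA per cell cannot be told apart.

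On either side of the threshold of 3 C1q counts the genes differed. The threshold need not select the same kind of cell in both sections. C1qa was detected in 40.6% of all cells without and 32.9% with PHZ, and C1qb in 45.4% and 52.2%. The part of this in the ratios was not tested. Among cells with 3 or more C1q counts, the mean Adgre1 count per cell was 0.66 without treatment and 0.295 with PHZ, a ratio of 0.447 (0.436 to 0.457), and outside them the ratio was 0.309. Vcam1 was lower by nearly the same ratio in both kinds of cell (0.568 and 0.554). Cd163 was lowest within C1q cells, where its mean was 0.279 and 0.0619 (ratio 0.222, 0.212 to 0.233), with a ratio of 0.466 in the other cells.

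Siglec1 showed the reverse. Its mean count in cells with 3 or more C1q counts was 0.130 and 0.115, a ratio of 0.886 (0.849 to 0.924) and -0.17 on the log2 scale, compared with -1.36 for counts per cell of the whole section. Over all genes the median ratio per such cell was 1.02. These cells were deeper after PHZ (medians of 110 and 135 counts), and in CPM the Siglec1 ratio in them was 0.725 (0.695 to 0.756). In the other cells its mean count was 0.119 and 0.0111, a ratio of 0.0941 (0.0869 to 0.102), or 0.0717 in CPM. The cells with 3 or more C1q counts accordingly carried 38.1% of the Siglec1 counts of the untreated and 84.8% of the PHZ-treated spleen. Follicular stromal genes were also lower after PHZ, as given above, and whether the PHZ-treated section crossed less of the bands seen in the untreated one was not tested.

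Among the 15 other island macrophage genes, 14 had a ratio below 1, as did 73.1% of all genes, and 8 were past a 1.5-fold decrease, as were 41.5%, with a median ratio of 0.611 beside 0.731 over all genes. Timd4 was at 0.142, the transferrin gene Trf at 0.230, Spic at 0.364 and Il18 at 0.487. C1qa (0.560), C1qc (0.677) and C1qb (0.945) stood at different ratios, and the iron exporter Slc40a1 (0.804), Cd5l (0.944) and Dnase2a, the nuclease that degrades engulfed nuclei (0.994), were past no threshold. The exception was Epor, the erythropoietin receptor, at 10.05, a gene that is also on the erythroid list. Hp, whose protein delivers haemoglobin to Cd163, had a ratio of 2.00 and Itgb1 of 0.986.

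**Figure D5:**
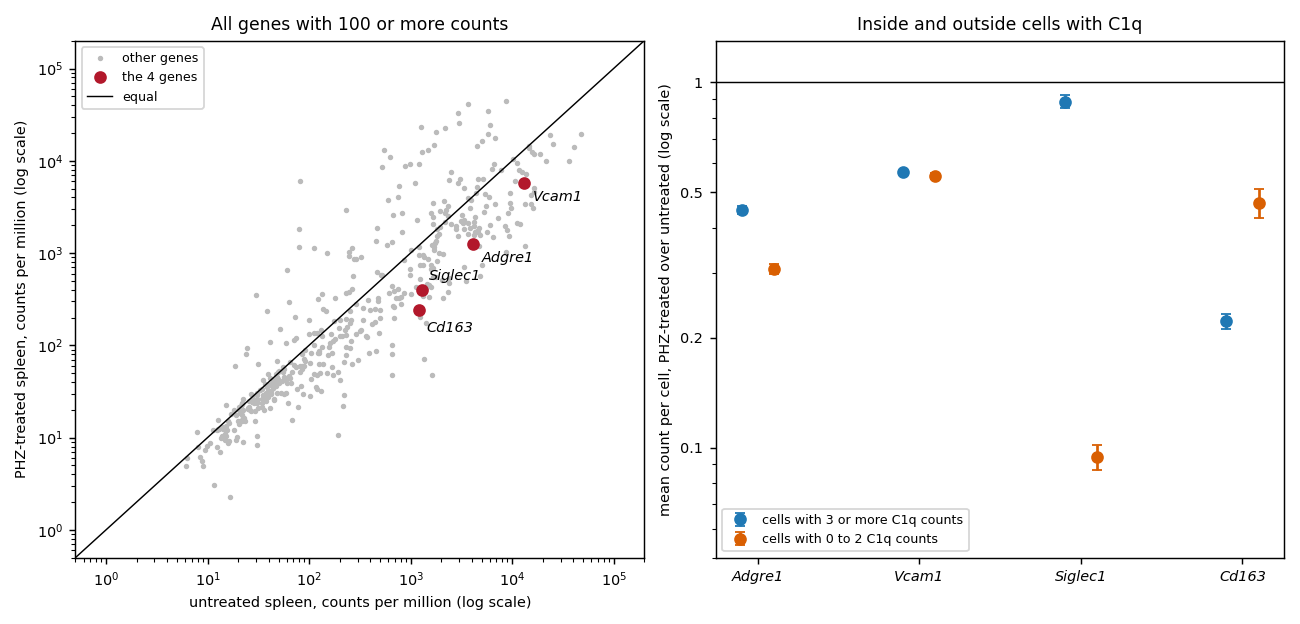
Left, CPM of every gene with 100 or more counts in the untreated (x) and PHZ-treated spleen (y), both on log axes, with the 4 genes marked. Right, ratio of the mean count per cell, PHZ-treated over untreated, in cells with 3 or more C1q counts and in the other cells, on a log axis with 95% intervals for counting error; Siglec1 stands at 0.886 in the first and 0.0941 in the second.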

How the data were processed

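The authors deposited Xenium outputs for each section: a matrix of transcript counts per gene and cell, cell positions and areas (in µm and µm2), and, for the smaller panel, every decoded transcript with its position and quality score. Counts were made by Xenium Onboard Analysis 1.7.1.0 (smaller panel, nuclei expanded to cells) and 3.1.0.4 (larger panel, stained outlines), per the file headers; the genome build was not given in the sources used here. The deposited counts held only transcripts with a score of at least 20. Here, cells with at least 5 genes were kept, after the study's methods. Levels are summed counts per 1000000 gene counts, and ratios and log2 ratios were computed from them. Overlaps were set against independence within 10 strata of total count, using genes in at least 1% of cells for the ranking. Cells were thinned to 50 counts as an alternative. Intervals (95%) are exact Poisson or binomial. Sections shared at most 6 cell names per pair. Python 3.11.15, numpy 2.4.6, scipy 1.17.1, pandas 2.3.3 and matplotlib 3.10.9 were used, and the calculations were checked on simulated data. The 4 genes and the lists were chosen with earlier results of these data known. Genes named are the 4 genes, the listed island genes and partners, and the 5 genes most alike each member, of which 1 is not reported here. Genes overlapping with Siglec1 at low C1q were named after their values were seen, and Hbb-bt as part of a denominator. No probe sequences were used here.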

Additional observations from a re-analysis of the deposited data

How the results depend on the processing

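No paired analysis was possible because each condition has 1 section, and for the same reason no replicate could be left out. The log2 ratios of PHZ-treated over untreated spleen for Adgre1, Vcam1, Siglec1 and Cd163 were -1.37, -0.85, -1.36 and -1.99 as counts per cell, -1.23, -0.71, -1.23 and -1.86 with totals without erythroid genes, -1.25, -0.73, -1.25 and -1.88 with a median-ratio size factor, -2.14, -1.62, -2.14 and -2.77 per area of segmented cells, and -1.16, -0.82, -0.17 and -2.17 as the mean per cell among cells with 3 or more C1q counts. In CPM of the cells with 3 or more C1q counts they were -1.45, -1.11, -0.46 and -2.46. Totals without Hbb-bt gave -1.65, -1.13 and -1.65 for the first 3, and transcripts over the nucleus alone -1.87, -1.12 and -2.52 for Adgre1, Vcam1 and Cd163. No filter on cells and a minimum of 20 counts moved none of them beyond counting error.

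Detection in cells with 3 or more C1q counts exceeded that in other cells in 23 of 23 gene and section combinations, and in 22 after thinning to 50 counts and within 10 strata of total count. The exception was Siglec1 in the untreated spleen, with log2 folds of -0.31 and -0.24. For pairs, the sign turned for Adgre1 with Siglec1 in the untreated spleen without strata (0.25), within squares of 200 µm (0.037), in cells with 3 or more C1q counts (0.062) and over the nucleus (0.12). It turned for Siglec1 with Cd163 in that section without strata (0.25), in squares (0.016) and over the nucleus (0.24), and after PHZ with at least 2 counts of each (-0.0090) and in cells with 3 or more C1q counts (-0.077). In those cells it also turned for Vcam1 with Siglec1 in the untreated spleen (-0.019) and Vcam1 with Cd163 at P8 (-0.31). As counts per cell, P8 marrow was below E14.5 liver for Adgre1 (log2 -0.32) and Vcam1 (-0.17), and aged marrow below E13.5 liver for Vcam1 (-0.58). The causes were not tested. A minimum quality score of 30 moved 5 of 16 distances to C1q. At these depths many cells that express a gene hold no count of it, and transcripts of a neighbour can add cells, so shares of cells are not shares of expressing cells.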
